A study of Homo sapiens with 6 samples.

Results

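The genes described here lie on the long arm of chromosome 1 between 140 and 170 Mb (GRCh38) and were compared between 2 human breast cancer cell lines. A row of the deposited count table was taken when its gene started in that interval and its counts averaged at least 1 CPM (counts after scaling every library to the same total) over the 6 libraries. The rule gave 257 genes of 1042 rows in the interval and of 61541 rows in all; 12839 rows of the whole table and 1334 rows of chromosome 1 reached the same level. The interval was chosen by the fold changes of its genes between these same libraries, so the fold changes below describe these libraries and are not an independent test of a regional difference. BNIPL (0.834 CPM), H2BC19P (0.951 CPM) and LRRC71 (0.974 CPM) fell just short of the level, and ARHGAP30 (1.012 CPM) and BOLA1 (1.052 CPM) just reached it.

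The lines were MDA-MB-231, a triple-negative breast adenocarcinoma line, here called parental, and its luciferase-expressing subline MDA-MB-231-D3H2LN (MDA231-LN), which is known as a derivative taken from a tumour-bearing lymph node of a mouse. Both were sequenced as 3 bulk libraries of total RNA from cells kept in high-glucose DMEM with 10% serum. Each kind of cell is a single line, and nothing in the labels says that its libraries came from separate cultures, so errors and tests measure only the spread between these libraries. The libraries held 16461578 to 19171017 counted fragments.

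The proximal long arm of chromosome 1 begins next to a large block of heterochromatin and a set of segmental duplications, and is then dense in genes. It carries the epidermal differentiation complex with most S100 genes, a cluster of replication-dependent histone genes, the SLAM and Fc receptor genes of immune cells, and many housekeeping genes for splicing, protein turnover and mitochondria. The arm is often present in extra copies in breast cancers. RNA counts do not measure DNA copies, and DNA was not analysed here.

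Promoter windows are shown for 5 genes that mark the pattern: NCSTN, a gene close to the regional shift; HSD17B7 and RGS4, the nearest genes above 5 CPM on either side of the right edge; and PEAR1 and AIM2, which departed furthest from the shift in each direction among the genes above 5 CPM. Each sequence holds the 250 bases before the RefSeq start (GRCh38.p14), 5′ to 3′ on the gene's strand, and comes from the reference and not from these cells. Capitals mark CCAAT or GGGCGG on either strand; TATAAA and CACGTG were searched as well and are in none of the 5 windows, and no marked match overlaps another.
NCSTN: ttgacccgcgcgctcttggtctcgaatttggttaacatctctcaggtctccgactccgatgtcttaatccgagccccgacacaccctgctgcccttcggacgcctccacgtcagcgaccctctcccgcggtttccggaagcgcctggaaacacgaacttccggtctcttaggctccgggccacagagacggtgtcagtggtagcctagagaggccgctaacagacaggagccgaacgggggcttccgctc
HSD17B7: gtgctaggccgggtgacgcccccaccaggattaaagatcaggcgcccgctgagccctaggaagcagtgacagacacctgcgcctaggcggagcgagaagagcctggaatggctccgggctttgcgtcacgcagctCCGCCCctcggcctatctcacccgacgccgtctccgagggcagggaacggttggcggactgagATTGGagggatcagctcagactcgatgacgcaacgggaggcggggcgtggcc
RGS4: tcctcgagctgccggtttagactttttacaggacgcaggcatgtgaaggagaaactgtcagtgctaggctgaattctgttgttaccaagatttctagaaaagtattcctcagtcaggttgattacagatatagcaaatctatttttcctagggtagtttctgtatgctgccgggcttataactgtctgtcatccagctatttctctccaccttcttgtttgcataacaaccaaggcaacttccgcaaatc
PEAR1: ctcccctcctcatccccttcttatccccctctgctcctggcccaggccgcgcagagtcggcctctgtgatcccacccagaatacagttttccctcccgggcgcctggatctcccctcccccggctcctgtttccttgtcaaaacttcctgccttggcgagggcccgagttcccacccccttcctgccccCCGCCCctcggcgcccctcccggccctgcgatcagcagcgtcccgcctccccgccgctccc
AIM2: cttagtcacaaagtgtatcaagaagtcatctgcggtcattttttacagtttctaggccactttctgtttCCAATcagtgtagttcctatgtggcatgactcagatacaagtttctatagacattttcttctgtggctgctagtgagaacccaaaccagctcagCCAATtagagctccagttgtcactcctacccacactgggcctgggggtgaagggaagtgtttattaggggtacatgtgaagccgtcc
The windows lie at chr1:160343133-160343382 (NCSTN, plus strand), chr1:162790452-162790701 (HSD17B7, plus strand), chr1:163068621-163068870 (RGS4, plus strand), chr1:156893468-156893717 (PEAR1, plus strand) and chr1:159076767-159077016 (AIM2, minus strand). The RefSeq start of AIM2 lies inside the gene span of the count table, which begins further upstream at 159147096. CCAAT was in 33% and GGGCGG in 42.3% of the 27326 promoters of the RefSeq table in windows of the same length, TATAAA in 11.1% and CACGTG in 6.5%. The CCAAT motif occurred once in HSD17B7 and at 2 places in AIM2, and GGGCGG once in HSD17B7 and once in PEAR1, whereas NCSTN and RGS4 held none of the 4. A match is a run of letters and not a site, and a window without a match says only that these letters are not in it. RefSeq promoters matched 204 of the 257 genes (79.4%), under the 80% needed to compare promoter composition, so no such comparison is given.

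Most genes of the interval were lower in MDA231-LN, and by a similar factor. The median log2 fold change (MDA231-LN minus parental) over the 257 genes was -0.85, with an interquartile range of -1.15 to -0.42, against 0.02 over all 14176 genes tested. With edgeR's quasi-likelihood test at an adjusted p under 0.05, 218 of the 257 genes were called (84.8%), 196 of them lower and 22 higher, while 39 were not called; the background was 62.8% called in either direction, 31.2% lower and 31.6% higher. The lines did not overlap in 222 of the 257 genes, 198 of them lower in MDA231-LN, with a background of 66.6% in either direction and 32.8% lower. Because the interval was picked for this contrast, nothing is read from these shares. In bulk RNA, less RNA per cell and fewer cells with the RNA cannot be told apart.

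The shift was alike in each MDA231-LN library. Cut at the right edge described below, the interval held 226 genes before the edge, called the stretch from here on, and 31 distal genes after it. On the scale of log2(CPM + 0.5), the median ratio of the stretch to the parental mean was -0.87, -0.89 and -0.87 in the 3 MDA231-LN libraries, against 0.00, 0.03 and -0.02 in the parental ones. The same median over the distal genes was -0.07, -0.04 and -0.04 in MDA231-LN and -0.03, 0.03 and 0.01 in the parental line. The median of the stretch was lower in every MDA231-LN library than in any parental one, while that of the distal genes lay near 0 in both. The edge was itself placed on the fold changes of these libraries, so this contrast follows from the cut and does not test it. All 257 genes together took 2.45%, 2.49% and 2.38% of the parental counts (2.44% ± 0.0569, SD, n = 3) and 1.41%, 1.41% and 1.45% of the MDA231-LN counts (1.42% ± 0.0199, SD, n = 3). The parental share was 1.71 times that of MDA231-LN, with no overlap.

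**Figure D1:**
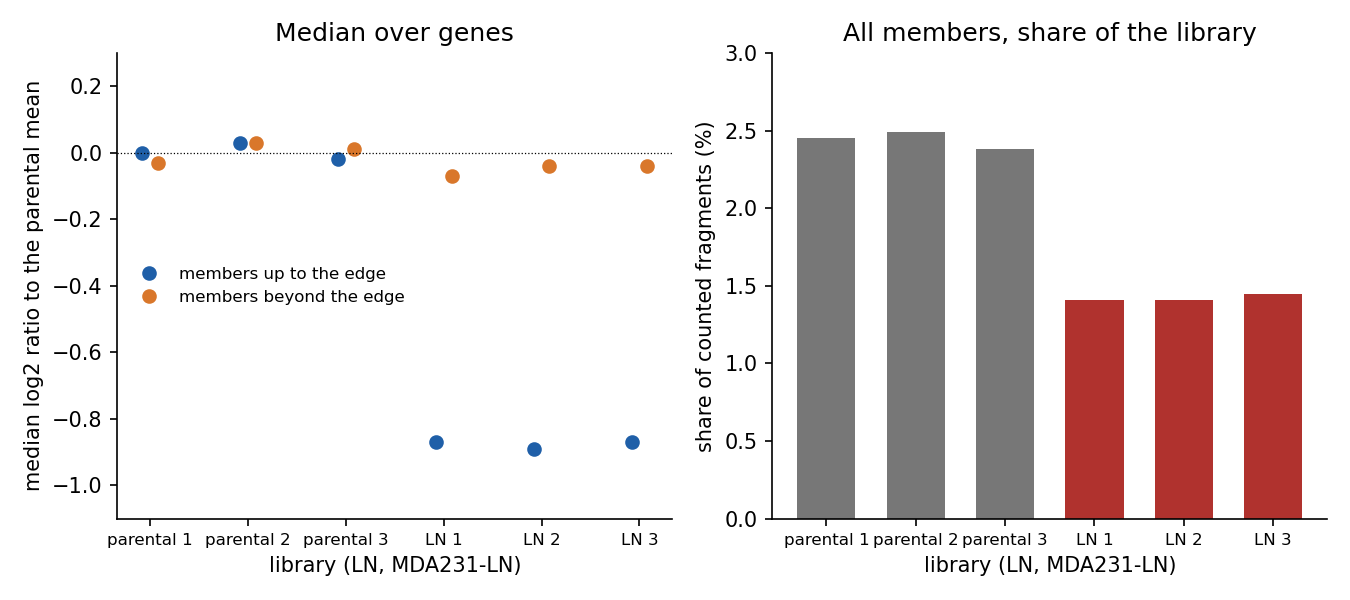
Left, the median over genes of the log2 ratio of each library to the parental mean, on the log2(CPM + 0.5) scale, for the 226 genes up to the right edge and the 31 beyond it; right, the percentage of each library's counted fragments that came from all 257 genes. The stretch sits at -0.87 to -0.89 in the MDA231-LN libraries, and the share drops from 2.38% to 2.49% in the parental line to 1.41% to 1.45%.

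Along the chromosome the shift was flat over most of its length and ended abruptly on the telomeric side. Chromosome 1 was divided into segments of constant median by least absolute deviations on the 1334 genes in order of position. The division gave 4 segments, with medians of -0.05 (WASH7P to SH3BGRL3, 241 genes), 0.51 (UBXN11 to EMBP1, 516 genes), -0.90 (LINC01691 to HSD17B7, 227 genes) and -0.09 (CCDC190 to PGBD2, 350 genes). The third holds LINC01691 and the 226 genes of the stretch. In windows of 5 Mb the median was -0.75 from 145 to 150 Mb (39 genes), -0.98 from 150 to 155 Mb (83 genes), -0.95 from 155 to 160 Mb (65 genes) and -0.80 from 160 to 165 Mb (38 genes), then -0.05 from 165 to 170 Mb (26 genes) and -0.23 from 170 to 175 Mb (21 genes). On the other side of the centromere, the windows nearest to it had medians of -0.01 (120 to 125 Mb, 12 genes) and 0.06 (115 to 120 Mb, 19 genes), and that from 110 to 115 Mb had 0.50 (39 genes).

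**Figure D2:**
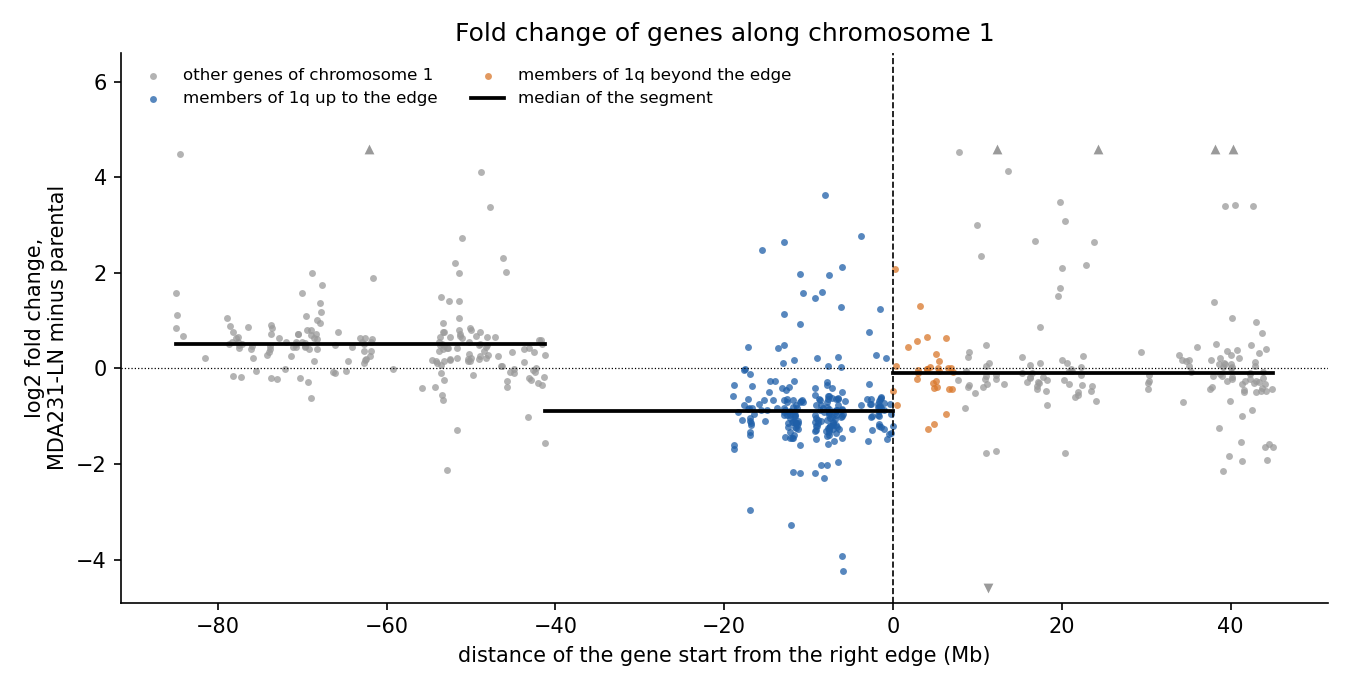
Log2 fold change (MDA231-LN minus parental) of genes of chromosome 1 against the distance in Mb of their start from the right edge; triangles are genes beyond the axis range of 4.6 in either direction. Black lines are the segment medians of 0.51, -0.90 and -0.09, and the points of the 226 genes before the edge gather around the middle line while the 31 beyond it sit around the last.

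Within the stretch the running median of 15 neighbouring genes stayed between -1.15 and -0.42. The value of -0.42 was shared by 6 successive windows, the first opening at LINC00624 (147258885) and the last closing with a gene that starts at 150045660. This part of 1q21 holds duplicated families and histone genes. A division by least squares set most of it apart as a segment of 16 genes, LINC00624 to BOLA1, whose median was -0.34, with 8 genes lower, 3 higher and 5 not called. Of those 16, BCL9 (-0.67), ACP6 (-1.1) and NBPF9 (-0.82) lay near the regional shift, whereas BOLA1 (2.64) and LINC00624 (2.48) were higher in MDA231-LN at under 2 CPM.

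The right edge fell between HSD17B7, the last gene of the shifted segment, and CCDC190, whose starts at 162790702 and 162824458 are 33.8 kb apart. UHMK1, a kinase gene, and UAP1, which makes UDP-N-acetylglucosamine for glycosylation, are the nearest well-counted genes inside. UAP1 read 312, 342 and 318 CPM in the parental line against 124, 125 and 129 in MDA231-LN (log2 fold change -1.36 ± 0.06, SE), and UHMK1 read 330, 331 and 366 against 218, 209 and 186 (-0.74 ± 0.06). HSD17B7, an enzyme of cholesterol and steroid synthesis, read 32.7, 30.0 and 32.2 against 13, 11.8 and 16.2 (-1.21 ± 0.11); it has near-identical pseudogene copies, so its counts are uncertain. All 3 genes were lower in every MDA231-LN library than in any parental one. CCDC190, the first gene outside, was not called at -0.47 ± 0.24, and its neighbour RGS5, an inhibitor of G-protein signalling, stood at 0.06 ± 0.27.

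The edge was not sharp at every gene. NUF2, a kinetochore protein needed for chromosome segregation, starts at 163266576, beyond the edge, and read 140, 145 and 155 CPM in the parental line and 80.9, 89.3 and 87.1 in MDA231-LN (-0.77 ± 0.06), a value inside the range of the stretch. RGS4, next to RGS5 and also an inhibitor of G-protein signalling, starts at 163068775 and went the other way, with 4.63, 6.34 and 4.44 CPM against 23.2, 21.7 and 20.3 (2.08 ± 0.15, 4.24-fold higher). Set against the parental mean singly, MDA231-LN libraries 2 and 3 gave the same edge, and library 1 placed it after CCDC190, at 162.95 Mb in place of 162.81 Mb.

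The left edge could not be placed within the interval. No gene reached the level between LINC01691, at 121573946, and H3-7, at 143894544, a gap of 22.3 Mb over the centromere and its heterochromatin. LINC01691, with a log2 fold change of -1.57 at a mean of only 1.21 CPM, is the only gene of the shifted segment before the gap. Before it, FAM72B was higher in MDA231-LN (0.51 ± 0.11) and SRGAP2C was not called (-0.35 ± 0.18). Set against the parental mean singly, MDA231-LN libraries 1 and 3 placed the left edge at 121.55 Mb, before LINC01691. Library 2 placed it at 121.18 Mb, before SRGAP2C. After the gap, SRGAP2D read 19.5, 19.8 and 22.3 CPM against 7.48, 6.15 and 6.68 (-1.60 ± 0.13), whereas FAM72C was not called (-0.35 ± 0.17) but was called lower without parental replicate 1 (-0.43) or MDA231-LN replicate 2 (-0.49). FAM72 and SRGAP2 genes are near-identical copies of each other on both sides of the centromere, so the division of reads among them is uncertain.

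Beyond the edge the 31 distal genes had a median of -0.04 (interquartile range -0.40 to 0.11), and 11 were lower, 7 higher and 13 not called; with upper-quartile scaling the median was 0.07, with 8 lower, 8 higher and 15 not called. For comparison, the 319 genes of chromosome 1 beyond 170 Mb had a median of -0.11. POU2F1 (0.04), a homeodomain transcription factor, POGK (-0.02), TADA1 (-0.01), a subunit of the SAGA coactivator, TMCO1 (-0.10), a calcium channel of the endoplasmic reticulum, and UCK2 (-0.04), a uridine kinase, were not called; POGK, TADA1, TMCO1 and UCK2 turned sign with upper-quartile scaling, and POU2F1 without parental replicate 2 (-0.11) or MDA231-LN replicate 2 (-0.04). ATP1B1, the beta subunit of the sodium pump, was low among them, with 124, 139 and 142 CPM in the parental line and 72.6, 67.5 and 68.7 in MDA231-LN (-0.96 ± 0.07). RCSD1 also fell, with 30.7, 31.1 and 29.2 against 12.3, 14.1 and 14.2 (-1.16 ± 0.11). RCSD1 lies between CREG1 (-0.31) and MPZL1 (-0.42), and ATP1B1 between TBX19 (-0.06) and NME7 (0.64), so neither gene lies at the edge.

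**Figure D3:**
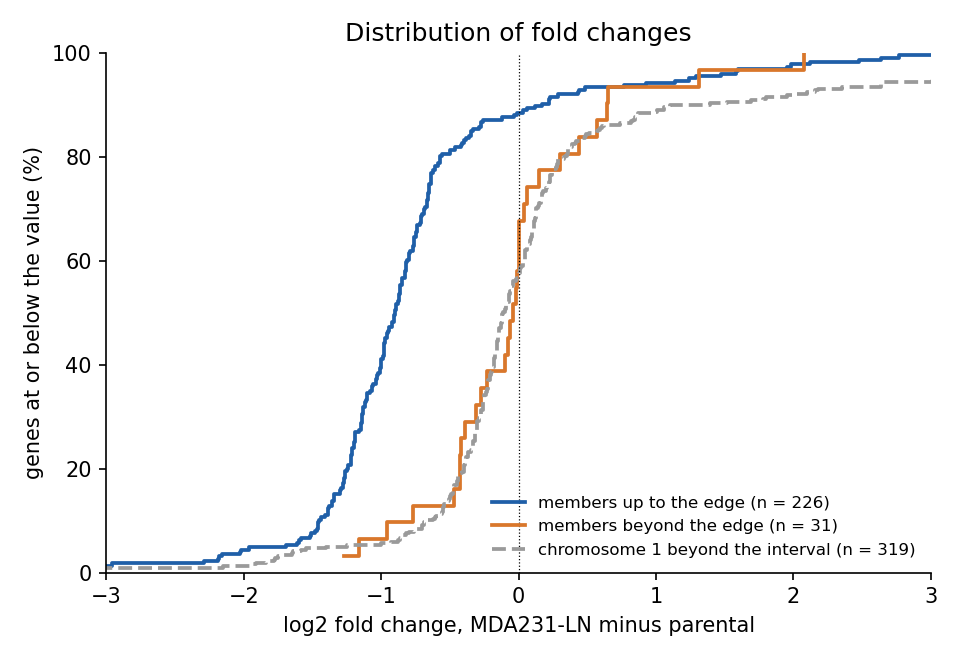
Cumulative percentage of genes against log2 fold change (MDA231-LN minus parental), for the 226 genes up to the right edge, the 31 members beyond it and the 319 genes of chromosome 1 beyond the interval; the axis ends at 3 in either direction. The curve of the 226 genes lies to the left, with a median of -0.90, and the other curves have medians of -0.04 and -0.11. The edge was placed on these same fold changes.

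In the stretch the shift was most uniform among well-counted genes. All 51 genes with a mean of at least 100 CPM were lower, with a median of -0.92 and an SD over genes of 0.30, and 92.2% of them lay within 0.5 of that median. The 2414 genes of the whole table at that level had an SD of 0.57 and 44.7% of them were lower. From 20 to 100 CPM, 79 of 82 genes were lower and 2 higher (median -1.02, SD 0.66). From 5 to 20 CPM, 31 of 38 were lower and 1 higher (median -0.80, SD 0.74). From 1 to 5 CPM, 24 of 55 were lower and 12 higher (median -0.65, SD 1.46). Most of the scatter therefore came from genes with few counts. Of all genes at the same levels, 41.3% (20 to 100 CPM), 28.3% (5 to 20 CPM) and 14.4% (1 to 5 CPM) were lower. The percentages higher were 27.8%, 34.4% and 36.3%, and the medians -0.08, 0.06 and 0.38. From 1 to 5 CPM all genes had an SD of 2.22, so the wide spread there was not particular to the stretch. Over all 257 genes, the Spearman correlation of the absolute departure from the regional median with the mean log2 CPM was -0.40, a description in which genes share their libraries.

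The most counted genes give the size of the shift with the least counting error. LMNA, which encodes the nuclear lamins A and C, read 1081, 1113 and 1035 CPM in the parental line and 669, 686 and 707 in MDA231-LN (1.57-fold lower, log2 fold change -0.65 ± 0.05). TPM3, a tropomyosin of the actin cytoskeleton, read 990, 1062 and 980 against 539, 555 and 550 (1.84-fold lower, -0.88 ± 0.05). MCL1, an antiapoptotic member of the BCL2 family, read 729, 696 and 704 against 353, 348 and 336 (2.05-fold lower, -1.04 ± 0.05). The 51 genes of the stretch at 100 CPM or more, all lower, ran from -2.19 to -0.29. CCT3, a subunit of the cytosolic chaperonin, was 1.53-fold lower, HDGF, a secreted growth factor, 1.8-fold lower and PEA15, a regulator of ERK and death receptor signalling, 2.03-fold lower. TAGLN2, an actin-binding protein, had the smallest drop of the 8 most counted genes, at 1.26-fold (-0.33 ± 0.06).

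**Figure D4:**
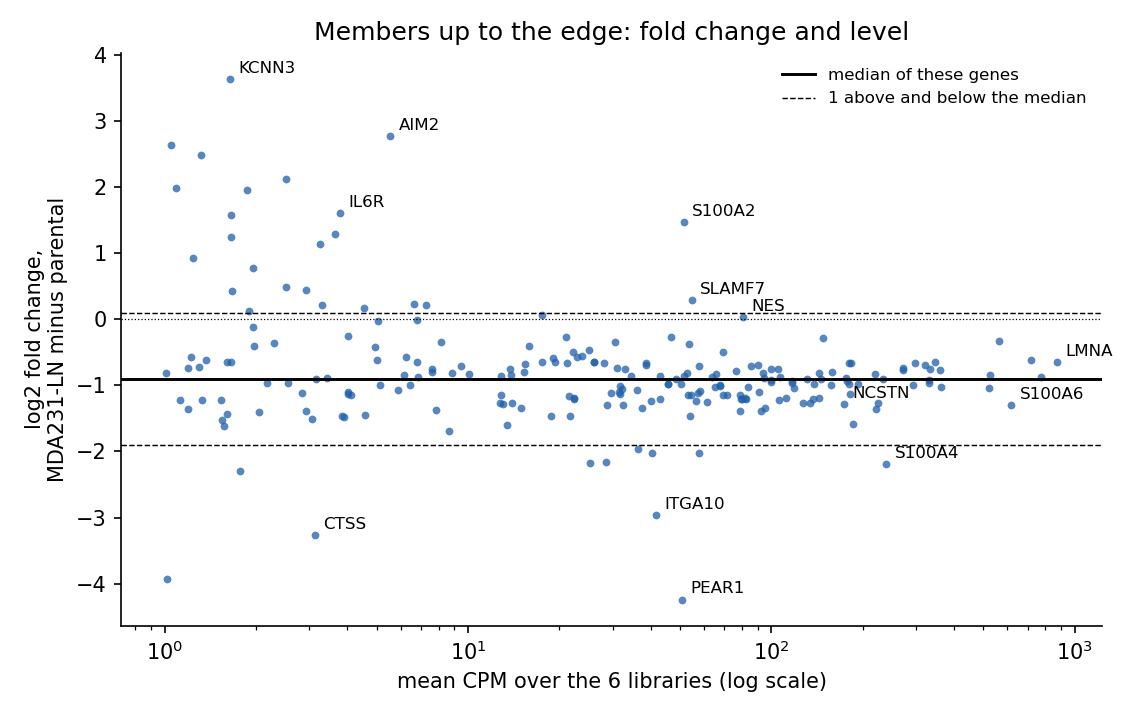
Log2 fold change (MDA231-LN minus parental) of each of the 226 genes up to the right edge against its mean CPM on a log axis; the solid line is their median of -0.90 and the dashed lines lie 1 above and 1 below it. Genes from 100 CPM upward gather around the median, and most genes far above it have under 5 CPM.

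Genes were also read by role, from lists drawn up with earlier results of these data known. Each list is set beside 31.2% lower, 31.6% higher and a median of 0.02 over all genes tested. The listed genes that were measured as members lie in this region, where 76.3% of the 257 were lower and 8.56% higher (median -0.85). A list with mostly lower genes therefore says nothing about its role apart from its place on the chromosome. NCSTN and APH1A, 2 subunits of gamma-secretase, the protease that cleaves Notch receptors, were both lower. NCSTN (160343316 to 160358952) read 244, 267 and 240 CPM against 99.5, 102 and 107 (2.43-fold lower, -1.28 ± 0.06). APH1A read 190, 191 and 174 against 89.9, 98.2 and 93.9 (1.97-fold lower, -0.98 ± 0.06). Both lay within 0.5 of the regional median, at -0.43 and -0.13 from it, and the lines did not overlap.

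Of 20 ligands, receptors, adhesion proteins and surface proteases, 14 reached 1 CPM, of which 9 were lower, 3 higher and 2 not called (median -0.70). ADAM15, a membrane metalloprotease and disintegrin, read 289, 284 and 276 CPM against 93.5, 96.9 and 94.0 (2.99-fold lower). MPZL1 (-0.42), an adhesion protein of the distal part, and IGSF8 (-0.74), a tetraspanin partner, were lower, and EFNA1 (-0.57), an ephrin ligand, was lower but not called without MDA231-LN replicate 1 (-0.43) or 2 (-0.52). DDR2 (-0.96), a collagen receptor kinase, lost its call without parental replicate 3 (-0.67) or MDA231-LN replicate 3 (-0.74). The 3 higher genes all had under 5 CPM: MUC1 (1.95), a membrane mucin, IL6R (1.60), the interleukin-6 receptor, and IGSF9 (0.77), which lost its call in 7 of the other fits.

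Of the 8 matrix and matrix-associated genes, 6 reached the level, 5 being lower and OLFML2B not called (median -1.26). ECM1, a secreted glycoprotein, read 61.5, 64.7 and 56.2 CPM against 46.9, 47.0 and 46.4 (-0.38 ± 0.08). The cathepsin genes CTSS and CTSK, which encode lysosomal proteases able to cut matrix proteins, stood at -3.27 ± 0.31 and -1.12 ± 0.30. ADAMTSL4 (-1.45) and THBS3 (-1.39) were lower as well, although 78.7% of the exonic sequence of ADAMTSL4 and 91.4% of that of THBS3 lie within other genes, and reads shared by 2 genes had been left out.

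Genes of transcription factors and chromatin proteins lay near the regional shift up to the edge. Of 28 listed genes 22 reached the level, and 19 were lower, 1 higher and 2 not called (median -1.15); all 3 exceptions, POU2F1 and TADA1 among them, lie beyond the edge. ATF6, the endoplasmic reticulum stress sensor, read 181, 195 and 197 CPM against 81.1, 79.8 and 78.9 (-1.26 ± 0.06). ARNT, the partner of hypoxia-inducible factors, read 78.3, 73.7 and 88.0 against 29.3, 28.6 and 29.3 (-1.46 ± 0.08). SETDB1, a histone H3 lysine methyltransferase, MEF2D, POGZ and ASH1L stood at -1.12, -1.26, -1.19 and -1.21.

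Genes of RNA processing followed the same course, with 12 of 13 lower and a median of -1.03. ADAR, the enzyme that edits adenosine to inosine in double-stranded RNA, read 426, 423 and 462 CPM against 238, 235 and 218 (-0.92 ± 0.06). The splicing factors SF3B4 (-0.98) and PRPF3 (-1.22) and the double-stranded RNA binding protein ILF2 (-0.76) were lower. RBM8A, a core protein of the exon junction complex, was not called, but all of its exonic sequence (100%) lies within other genes, so its counts do not measure it. Of the 14 mitochondrial genes 13 were lower and 1 higher (median -0.82). DAP3, a mitochondrial ribosomal protein, and SDHC, of respiratory complex II, stood at -1.13 and -0.79, with 53.6% of the exonic sequence of SDHC within other genes.

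All 10 measured genes of the proteasome, chaperones and ubiquitin system were lower, with a median of -0.82 and a range of -1.20 to -0.61. The proteasome subunits PSMB4 and PSMD4 stood at -0.83 and -0.89, each with an SE of 0.06. In the secretory pathway 7 of 8 were lower (median -1.05), among them COPA, a subunit of the COPI coat, with 394, 373 and 412 CPM against 208, 206 and 181, while the distal TMCO1 was not called and turned to 0.01 with upper-quartile scaling. All 6 genes of cell cycle and survival were lower (median -0.83), including CKS1B, a subunit of cyclin-dependent kinases, at -0.80 and IQGAP3 at -0.90. All 10 lipid and sugar genes were lower (median -1.02), among them FDPS and PMVK of the mevalonate pathway (-1.03 and -1.30) and CERS2, a ceramide synthase (-0.66), with 60.6% of its exonic sequence within other genes; ALDH9A1, a distal gene at -0.23, was not called with upper-quartile scaling (-0.12).

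Of the 12 cytoskeleton and lamina genes 9 were lower and 3 not called (median -0.85). Those not called were NES, ARHGAP30 (-0.81), which stood at 1.01 CPM and was called lower without parental replicate 1 (-1.26), and the distal KIFAP3 (-0.08), a kinesin-associated protein. NES, the intermediate filament protein nestin, lies at 156668763 in the middle of the stretch and read 78.8, 82.4 and 77.9 CPM in the parental line and 79.2, 79.6 and 86.0 in MDA231-LN. Its log2 fold change was 0.03 ± 0.07, 0.88 above the regional median, and the lines overlapped; with upper-quartile scaling it was called higher at 0.15, and without MDA231-LN replicate 3 its value was -0.01. SHC1, a signalling adaptor, was lower by less than the region (-0.29 ± 0.06). The small GTPase RIT1 (-1.06) and CDC42SE1 (-1.39), an effector of the GTPase CDC42, lay at or below the shift.

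The S100 genes encode small calcium-binding proteins, and 2 neighbours among them went opposite ways. Of 16 genes 7 reached the level, with 6 lower and 1 higher (median -0.97). S100A6 read 868, 1101 and 700 CPM against 365, 331 and 389 (-1.30 ± 0.09), S100A10, the partner of annexin A2, stood at -0.66 and S100A16 at -0.97. S100A4, a protein long studied in metastasis (153543613 to 153550136), read 386, 464 and 349 against 75.8, 84.5 and 103 (4.56-fold lower, -2.19 ± 0.09). S100A2, the next measured S100 gene along, at 153561108 to 153567890, read 26.0, 34.9 and 20.2 against 74.1, 65.3 and 83.6 (2.76-fold higher, 1.47 ± 0.12). Neither gene overlapped between the lines, and the pair departed from the regional median by -1.34 and 2.32. S100A13 (-0.56) has 88.1% of its exonic sequence within other genes, and S100A1, S100A3 and S100A11 were not measured for the same reason.

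Of the duplicated families of 1q21, 15 genes were members; 12 were lower, 0 higher and 3 not called (median -0.76). NBPF15 read 199, 172 and 207 CPM against 106, 104 and 98.6 (-0.91 ± 0.07) and NBPF9 stood at -0.82, while NBPF20 stood at -0.01, a sign that turned with the other scalings. PDE4DIP, a centrosomal and Golgi scaffold, was lower by -0.27 ± 0.08 and was not called with upper-quartile scaling (-0.16). Reads that align to more than 1 place had been left out, so these values rest on the parts of each copy that differ and the family members remain uncertain.

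Genes of other cell types were mostly at or near 0 counts in the epidermal, immune and leukocyte lists, and less so in the endothelial and fibroblast lists. Of 22 epidermal differentiation genes outside the S100 family, 21 had 0 counts in all libraries; TCHH, trichohyalin of hair follicles, was the exception, with 0.975, 0.38 and 1.07 CPM against 3.28, 1.5 and 2.57 (1.58 ± 0.42). Of 33 immune receptor and selectin genes, 2 reached the level and 20 had 0 counts; some of both lists lie inside other genes and so were not measured. SLAMF7, a receptor known from lymphocytes and plasma cells, read 44.5, 49.6 and 52.6 CPM against 62.4, 59.0 and 58.6 (0.29 ± 0.08). The 4 leukocyte markers, PTPRC and CD3E among them, summed to 0.305 to 0.697 CPM in parental cells and to 0.443 to 0.617 CPM in MDA231-LN, with CD3E at 0 counts. The 4 endothelial markers summed to 9 to 14.6 CPM in parental cells and 13.3 to 14.2 in MDA231-LN. Most came from PECAM1 (9.52 CPM in parental cells and 8.59 in MDA231-LN), with CDH5 at 0 and 0.0541 CPM. The sums hide opposite differences, as the mean of KDR was lower in MDA231-LN (2.76 and 1.45 CPM) and that of PROX1 higher (0.183 and 3.76 CPM). The 4 fibroblast markers summed to 9.19 to 14.6 CPM and 14.9 to 19.5 CPM, mostly from COL1A1 (12.3 and 15.4 CPM), with DCN at 0 and 0.0343 CPM. The part of other cell types in the results was not tested. All 8 markers chosen for a mesenchymal-type carcinoma line, VIM, AXL and the keratins KRT8 and KRT18 among them, had at least 10 CPM in both lines. Of 6 luminal and hormone receptor genes chosen as low in this line, 2 also had at least 10 CPM in both. They were GATA3 (19.8 CPM in parental cells and 17.4 in MDA231-LN) and EPCAM (13 and 15.2 CPM). Among the rest, ESR1 read 0.164 and 0.951 CPM and FOXA1 0.179 and 2.63. Of 11 replication-dependent histone genes 3 were members, with H2AC20 higher (1.14 ± 0.28) and H2BC18 and H2BC21 not called, although H2BC21 (0.48) was called higher without parental replicate 2 (0.79); most of their transcripts lack a poly(A) tail, and how the libraries captured RNA is not given in the sources used here.

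Of the 257 genes, 42 (16.3%) departed from the regional median by at least 1 on the log2 scale, 11 further down and 31 up; 21.4% of all genes tested lay that far from the median of all. All 11 further down lay in the stretch, as did 23 of the 31 up, and 8 of the 31 were distal genes, with log2 fold changes from 0.15 (SFT2D2) to 1.31 (FAM78B) and 2.08 (RGS4). As the distal median was -0.04, a distal gene could depart from the regional median with little difference between the lines. SFT2D2, which was not called, is such a gene, so the count of 42 mixes genes outside the shift with genes inside it. Of the 31, 22 were called higher in MDA231-LN and 19 had a mean under 5 CPM. H2BC18, 0.97 above the regional median, did not reach the limit, and SFT2D2 (1.00 above) and SEMA6C (1.02 above) just reached it.

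PEAR1 had the lowest value of the region. It encodes a receptor of the EGF-like repeat family first described in platelets and endothelium, and lies at 156893698 to 156916429. It read 99.5, 105 and 93.0 CPM in the parental line and 5.28, 4.77 and 5.65 in MDA231-LN (18.9-fold lower, -4.24 ± 0.10). ITGA10, a collagen-binding integrin subunit at 145891208 to 145910111, read 69.7, 67.8 and 89.2 against 8.55, 9.20 and 11.3 (7.80-fold lower, -2.96 ± 0.11). The lines were far apart in both genes.

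Besides S100A4, 5 more genes above 5 CPM lay further down than the region, between 3.90-fold and 4.55-fold lower. TDRKH, a Tudor-domain protein of the piRNA pathway, read 39.7, 45.1 and 41.9 CPM against 9.58, 8.59 and 9.66 (-2.18 ± 0.11). PRUNE1, a phosphoesterase, read 47.1, 44.6 and 51.2 against 8.81, 11.5 and 11.8 (-2.16 ± 0.11). ATP8B2, a phospholipid flippase, stood at -2.03 ± 0.08, PBXIP1 at -2.02 ± 0.09, and GLMP, a lysosomal membrane protein, at -1.96 ± 0.10, with 42.8% of its exonic sequence within other genes. None of the 5 overlapped between the lines.

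**Figure D5:**
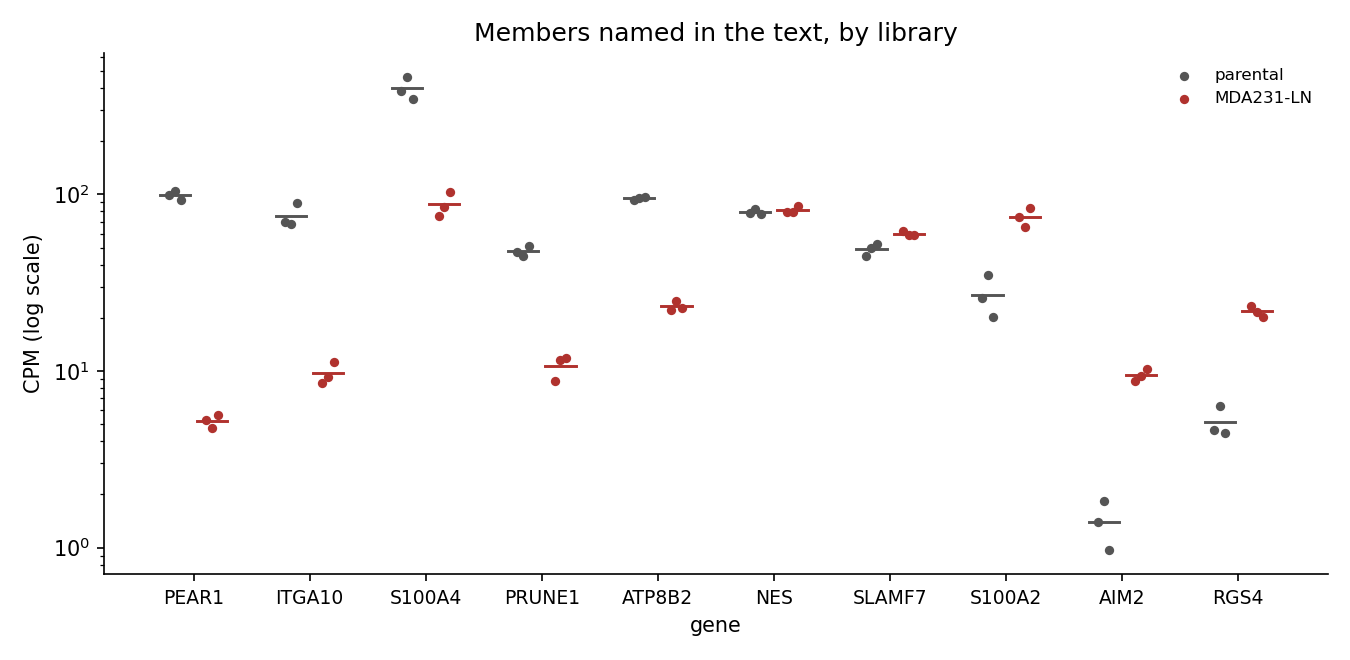
CPM on a log axis of 10 genes in each of the 3 parental and 3 MDA231-LN libraries (points) with the mean of each line (bars). PEAR1, ITGA10, S100A4, PRUNE1 and ATP8B2 are lower in every MDA231-LN library, NES overlaps, and SLAMF7, S100A2, AIM2 and RGS4 are higher in every MDA231-LN library.

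AIM2, a sensor of cytosolic DNA that starts an inflammasome, had the largest rise among members above 5 CPM. It read 1.4, 1.84 and 0.963 CPM in the parental line and 8.76, 9.31 and 10.3 in MDA231-LN (6.81-fold higher, 2.77 ± 0.24). IFI16, a related DNA sensor whose gene ends just before AIM2, kept to the region, with 134, 134 and 133 against 78.7, 81.7 and 77.0 (-0.76 ± 0.06). Neighbours thus stood on opposite sides here, as S100A4 and S100A2 did. Among members below 5 CPM, KCNN3, a calcium-activated potassium channel, read 0.305, 0 and 0.375 against 2.87, 3.33 and 2.72 (3.63 ± 0.51), and CRABP2, which carries retinoic acid, read 1.34, 2.09 and 2.78 against 4.25, 6.15 and 4.99 (1.29 ± 0.27), with 69.7% of its exonic sequence within other genes.

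Beyond the edge, departures upward included RGS4, described above, and genes with smaller changes. MGST3, a microsomal glutathione transferase, read 27.4, 26.7 and 20.2 CPM against 35.8, 34.1 and 39.7 (0.57 ± 0.11). ILDR2, an immunoglobulin-like membrane protein, read 15.7, 16.1 and 15.3 against 22.6, 24.8 and 26.2 (0.65 ± 0.11). Both were higher in every MDA231-LN library. NME7 (0.64 ± 0.21) was not called without parental replicate 3 (0.48) or MDA231-LN replicate 3 (0.54), and 90.7% of its exonic sequence lies within other genes. MPC2 (0.30 ± 0.12), a subunit of the mitochondrial pyruvate carrier, was not called without parental replicate 1 (0.22) or 2 (0.30), or without MDA231-LN replicate 1 (0.25) or 3 (0.30). PAQR6 (0.23 ± 0.19), which lies in the stretch, was not called in the fits compared.

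Other properties of the genes were set beside the shift. The stretch's 200 protein-coding genes had a median of -0.92, with 84.5% lower, and its 26 others -0.67, with 61.5% lower. Genes on the plus strand (103) had a median of -1.0, with 89.3% lower, and those on the minus strand (123) -0.86, with 75.6% lower. The 20 genes that overlap others by over 50% of their exonic sequence had a median of -0.82. Over the 257 genes the Spearman correlation of the log2 fold change with the mean log2 CPM was -0.20, with the length of the gene span 0.07 and with the share of exonic sequence that overlaps other genes -0.03 (252 genes with a value). These describe genes that share their libraries and their place on the chromosome. Among 244 windows of 10 Mb over the genome with at least 20 genes, the window from 150 to 160 Mb ranked 4 from the lowest median (-0.98), that from 140 to 150 Mb ranked 12 (-0.76) and that from 160 to 170 Mb, which holds the right edge, ranked 20 (-0.62). The long arm of chromosome 11 from 70 Mb, another stretch of lower genes, had a median of -1.0 over 275 genes, with an SD over genes of 1.68.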

How the data were processed

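RNA of 3 parental MDA-MB-231 and 3 MDA231-LN libraries was compared, grouped by the cell line that the labels give. The deposited values are raw counts per gene, which the authors made with featureCounts 2.0.1, per the file headers. Annotation was Ensembl release 105 (GRCh38), and read pairs were counted over whole gene spans, introns included, with no strand setting; fragments shared by several genes and multi-mapping reads were left out, per the file headers. Per the submitters' processing notes, reads were aligned with STAR, whose version is not given in the sources used here; DESeq2 is named there too. Genes lying inside others can therefore be counted low while expressed, and overlapping or antisense genes cannot be told apart.

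Counts were tested with edgeR 4.0.16 (R 4.3.3; TMM scaling, filterByExpr, 14176 genes, quasi-likelihood, Benjamini-Hochberg over all of them). All 257 genes of the region were tested. SE values are the absolute log2 fold change over the square root of F. CPM values use TMM-scaled library sizes, and the level of 1 CPM that chose the members uses raw column sums. The common biological coefficient of variation was 0.0691. Depth was 16461578 to 19171017 counts per library; the reads are not said to carry molecular identifiers. Edges came from segments of at least 15 genes with a penalty factor of 3, the method being checked on simulated data. Symbols matched 61369 rows (99.7%); overlaps came from GENCODE 29.

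The members, gene lists and tests were chosen with earlier results of these data known. Named are the 8 most counted members, up to 10 in each direction above 5 CPM that depart by at least 1, 3 genes on each side of each edge, up to 3 of each list, NCSTN and APH1A; some of these are not reported here. Others named, such as KCNN3, CTSS, CRABP2, IFI16, ARNT, SETDB1, FDPS, PMVK, RCSD1 and ATP1B1, were chosen after their values were seen, or to describe a list. Alternatives were other scalings, filters, DESeq2 1.42.0, thresholds, leaving out each library and the replicate number as a block.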

Additional observations from a re-analysis of the deposited data

How the results depend on the processing

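The regional median of -0.85 was -0.74 with upper-quartile scaling, which moved the median of all genes from 0.02 to 0.13, so that the region lay 0.87 below all genes in both. It was -0.69 as a mean over members, -0.87 at 5 CPM or more, -0.90 at 10 CPM or more, and -0.90 for the genes up to the right edge alone, an alternative added after seeing the data; leaving out each library gave -0.88 to -0.84. The right edge moved from 162.81 Mb to 162.95 Mb with least squares and to 162.93 Mb at 5 CPM or more, and leaving out each library gave 162.81 to 162.95 Mb. The left edge moved from 121.55 to 121.18 Mb at 5 CPM or more. Departing genes numbered 75 in place of 42 at a limit of 0.58, and 20 (8 down, 12 up) at 5 CPM or more. Without the 5 most counted members the share of counts was 2.01% in the parental line and 1.15% in MDA231-LN, on the same side. H2BC18, not called at 0.12, turned to -0.06 without parental replicate 3 and -0.13 without MDA231-LN replicate 2 (-0.13 to 0.35 over the libraries left out), and TMCO1, not called, turned to 0.01 with upper-quartile scaling; the cause was not tested. Same-numbered libraries did not deviate together (correlations -0.003941, 0.00241 and -0.05259). These values cannot tell whether such libraries were prepared together, and the labels do not say. With the replicate block 217 genes were called, 196 of them lower, and the median was -0.85.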
